A study of Mus musculus with 36 samples.

Results

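The replication histone H4 genes H4c6, H4c9, H4c17 and H4c18 were followed in the testis of juvenile mice with altered Brdt alleles. The genes were chosen by the measured difference of their brightest probes between Brdt knockout and wild type at 20 days post partum (dpp), where these lay among the genes furthest above wild type, and H4c17 also by its difference at 17 dpp. Every probe annotated to the 4 genes was taken, each kept apart, which gave 7 of the 45281 probes on the array. H4c6 (earlier symbol Hist1h4f) has 3 probes, H4c18 (Hist1h4n) has 2, and H4c9 (Hist1h4i) and H4c17 (Hist1h4m) have 1 each. All 7 were among the 21190 probes detected in at least 3 animals and tested. The array holds 21 probes of 13 H4 genes in all.

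Whole testis RNA of C57BL/6 mice was hybridised to 36 single-colour Illumina bead arrays, which came from 24 animals. The Brdt knockout line gave 4 Brdt-/- and 6 Brdt+/- animals at 17 dpp, and 4 Brdt-/- and 3 Brdt+/+ animals at 20 dpp. A second line, in which the first bromodomain of Brdt is deleted (BD1), gave 3 BD1-/- animals and 4 controls at 20 dpp, of which 2 were BD1+/- and 2 were BD1+/+. Controls were thus heterozygous at 17 dpp, wild type in the knockout line at 20 dpp and mixed in the BD1 line, and the sources used here say nothing more on how either allele was made.

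Histone H4 is a core protein of the nucleosome, and nearly all mouse H4 genes encode the same protein from separate copies that lie mostly in histone gene clusters. The replication histone genes are transcribed mainly in S phase, when new chromatin is assembled, and their usual mRNAs end in a stem-loop in place of a poly(A) tail. In the testis, spermatogonia and preleptotene spermatocytes replicate DNA, while later spermatocytes and spermatids do not, and spermatids go on to remove most histones. Brdt encodes a testis protein of the BET family whose first bromodomain binds acetylated histone H4. The labelling kit named in the labels primes from poly(A), so the usual stem-loop mRNAs are captured poorly and polyadenylated H4 transcripts well. Which form the probes recorded was not tested.

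The 4 genes lie on chromosome 13, where H4c17 and H4c18 stand next to each other among the H4 genes. Their upstream sequences are shown because they share elements close to the start. Whether these elements bear on the signals was not tested. Each line gives the 120 bases before the annotated transcription start, 5′ to 3′ on the gene's own strand, from RefSeq promoters of GRCm38.p6. Capitals mark GGTCCG, the core of the H4 promoter element that the factor HINFP recognises, and the TATA run.
H4c6 (chr13:23551669-23551788, minus strand): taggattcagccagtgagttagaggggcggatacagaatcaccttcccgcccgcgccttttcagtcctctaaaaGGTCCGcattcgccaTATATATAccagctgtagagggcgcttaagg
H4c9 (chr13:22041363-22041482, minus strand): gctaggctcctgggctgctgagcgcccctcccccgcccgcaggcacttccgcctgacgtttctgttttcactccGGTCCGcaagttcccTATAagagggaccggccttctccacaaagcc
H4c17 (chr13:21811626-21811745, plus strand): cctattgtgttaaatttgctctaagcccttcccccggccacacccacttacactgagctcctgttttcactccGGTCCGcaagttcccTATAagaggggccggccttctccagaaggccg
H4c18 (chr13:21832198-21832317, minus strand): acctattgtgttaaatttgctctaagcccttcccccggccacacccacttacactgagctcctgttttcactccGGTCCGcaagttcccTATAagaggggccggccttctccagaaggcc

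In these windows GGTCCG began 47 bases before the start in H4c17 and 46 bases before it in the others, and TATA began 32 and 31 bases before it. Searched on both strands of the 300 promoter bases, GGTCCG was found in 11 of 12 H4 promoters with a sequence and in 8.25% of all 32851 promoters. TATA beginning 40 to 25 bases before the start was found in 4 of 4 member promoters, in 5 of the 12 H4 promoters and in 5.23% of all promoters. Both together were found in 78 promoters (0.237%), of which 5 were H4 promoters, the fifth being that of H4c4. This TATA window is tied to the annotated start. GGTCCG began 18 bases before the start in H4c11, 32 in H4c12 and H4f16 and 5 in H4c8, and 6 bases after it in H4c2. In these promoters a TATA at the members' distance from GGTCCG would fall outside the window. In H4c3 GGTCCG began 46 bases before the start, where it lies in H4c6, H4c9 and H4c18, and no TATA was found in the window. TATA outside the window was not searched, so the counts do not show that any H4 promoter lacks it there. CCAAT, on either strand, was in none of the 4 member promoters, in 3 of the 12 and in 37.4% of all. The H4c17 and H4c18 promoters were identical at 298 of 301 aligned positions (99.0%), against 66.2% for H4c9 and H4c17 and 51.4% for H4c6 and H4c9. For the printed windows of the same pairs the values were 98.3%, 76.8% and 47.7%. The array files give no probe sequences here, so which of the H4 copies a probe binds is uncertain, and a value is that of the probe named for the gene.

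Levels are given as normalized log2 signal per animal, arrays of 1 animal averaged, and the levels of different probes are not set against each other. Across the 24 animals, the brightest probe of each of the 4 genes shared one order of group means: both knockout groups at the top, Brdt+/- at 17 dpp and the BD1 deletion in the middle, and both control groups at 20 dpp at the bottom.

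H4c17 is given first. It was chosen by its differences between Brdt-/- and control animals at both ages, so its order of groups is a description. Its signal was 8.51, 8.78, 7.81 and 8.34 in the Brdt-/- animals at 17 dpp, and 7.96, 7.99, 8.08 and 7.83 in those at 20 dpp. In Brdt+/- animals at 17 dpp it ran from 7.36 to 7.55 with a median of 7.49, and in the BD1 deletion it was 7.48, 7.32 and 7.44. In the Brdt+/+ animals at 20 dpp it was 6.54, 6.27 and 6.38, and in the BD1 line controls 6.37, 6.09, 6.09 and 6.26. The groups within each of the 3 tiers overlapped, and no animal of one tier overlapped the next. Of all tested probes, 1.52% lay without overlap above Brdt+/- in the knockout at 17 dpp. At 20 dpp 37.8% lay without overlap above Brdt+/+ in the knockout.

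The brightest H4c18 probe (ILMN_2597653) stood at 8.89, 8.86, 7.96 and 8.74 in Brdt-/- at 17 dpp, at 8.58, 8.70, 8.64 and 8.34 in Brdt-/- at 20 dpp, and at 6.87, 7.01 and 6.80 in Brdt+/+. Brdt+/- animals at 17 dpp lay between 7.73 and 8.09 with a median of 7.98. The BD1 deletion gave 7.73, 7.69 and 7.77, and its controls 6.89, 6.53, 6.44 and 6.84. The 7 control animals at 20 dpp were again below all 17 other animals, and 1 knockout animal at 17 dpp lay within the Brdt+/- range.

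For H4c6 the brightest probe (ILMN_1222313) read 8.88, 8.76, 8.23 and 8.71 in Brdt-/- at 17 dpp, 8.78, 8.73, 8.47 and 8.35 in Brdt-/- at 20 dpp and 7.05, 7.11 and 7.16 in Brdt+/+. In Brdt+/- animals at 17 dpp it was 8.02 to 8.45 with a median of 8.15, in the BD1 deletion 8.06, 8.22 and 8.17, and in the BD1 line controls 7.19, 7.05, 7.04 and 7.39. The 2 control groups at 20 dpp overlapped each other and lay under every other animal.

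H4c9 read 9.16, 9.26, 8.09 and 9.03 in Brdt-/- at 17 dpp, 8.70, 8.77, 8.83 and 8.76 in Brdt-/- at 20 dpp and 7.29, 7.48 and 7.47 in Brdt+/+. In Brdt+/- animals at 17 dpp it ran from 7.61 to 8.22 with a median of 7.91. In the BD1 deletion it was 8.32, 8.28 and 8.39, above every Brdt+/- animal, and in the BD1 line controls 7.51, 7.59, 7.35 and 7.51. The BD1 deletion lay 0.42 ± 0.17 (log2, SE) above Brdt+/- at 17 dpp without overlap, as did 17.3% of all tested probes, and the difference missed the threshold (limma, adjusted p = 0.0543).

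The remaining 3 probes followed this order less closely. H4c6 probe ILMN_2525565 was detected on 33 of 36 arrays and H4c18 probe ILMN_2937548 on 35. Between the 2 arrays of an animal these probes differed by a median of 0.33 and 0.32 log2 units over 12 animals. The second H4c6 probe (ILMN_1230265) differed by 0.17, and the brightest probes of H4c9, H4c17, H4c6 and H4c18 by 0.29, 0.22, 0.13 and 0.058. That second H4c6 probe had group means between 6.64 ± 0.30 (SD, n = 4) in the BD1 line controls and 7.46 ± 0.22 (n = 4) in Brdt-/- at 17 dpp, and its Brdt+/+ animals (6.90 ± 0.32, n = 3) overlapped the Brdt-/- animals at 20 dpp (7.17 ± 0.25, n = 4). The second H4c18 probe had its lowest mean in Brdt+/+ (6.20 ± 0.15, n = 3) and its highest in Brdt-/- at 17 dpp (7.60 ± 0.32, n = 4).

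**Figure D1:**
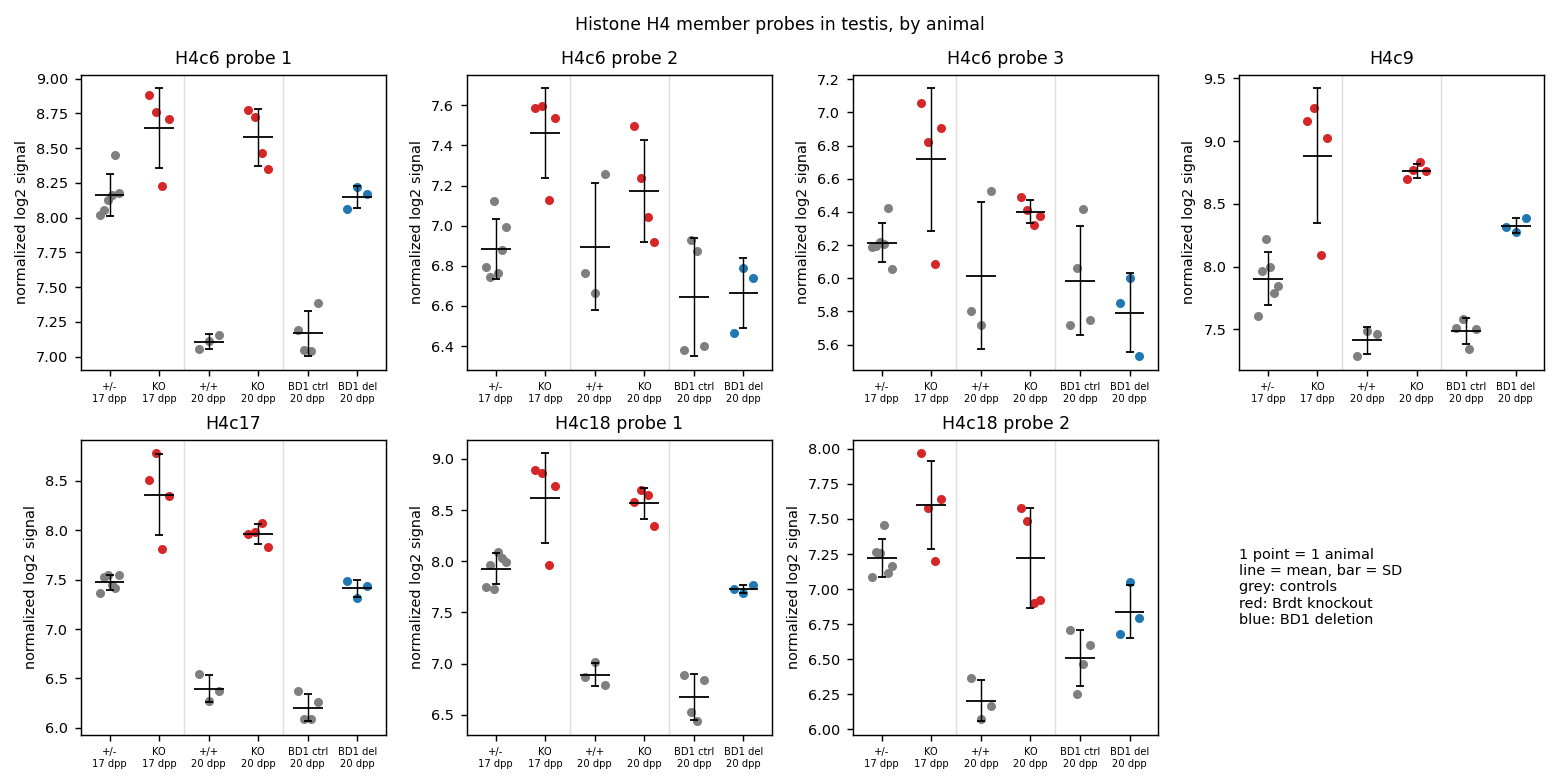
Normalized log2 signal of the 7 probes of H4c6, H4c9, H4c17 and H4c18, 1 point per animal, by group (n = 6, 4, 3, 4, 4 and 3 from left to right), with the mean as a line and the SD as a bar. Axes do not start at 0 and differ between panels. For H4c17 the control animals at 20 dpp sit between 6.09 and 6.54, below all other animals.

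The probes varied together over animals. Pearson's r over the 24 animals was 0.976 for H4c17 and the brightest H4c18 probe and 0.972 for the brightest H4c6 and H4c18 probes. With the group means removed, these were 0.781 and 0.781. The 2 dimmer H4c6 probes correlated at 0.856 with each other and at 0.575 to 0.672 with the 5 remaining probes. These values are descriptions, since all probes share arrays and near-identical targets. The 5 other genes whose patterns were most like the members, by the median r over the 7 probes and 24 animals, were Atp6v1e1 (0.907), Tnfsfm13 (0.901), Rdm1 (0.899), Ciapin1 (0.898) and Tsen15 (0.897). None of them is on chromosome 13, and their log2 differences in the knockout at 20 dpp ran from 0.55 ± 0.13 (SE) for Ciapin1 to 1.74 ± 0.13 for Rdm1.

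The BD1 deletion was compared with its own controls at 20 dpp, in animals that the choice of the genes did not use. All 4 genes were brighter in the deletion by their brightest probe. H4c17 rose by 1.21 ± 0.16 (log2, SE), a 2.31-fold difference (limma, adjusted p = 6.98e-06). The brightest H4c18 probe rose by 1.05 ± 0.17, or 2.08-fold (limma, adjusted p = 0.000206), and the brightest H4c6 probe by 0.98 ± 0.15, or 1.98-fold (limma, adjusted p = 5.14e-05). H4c9 rose by 0.84 ± 0.19, or 1.79-fold (limma, adjusted p = 0.0052). In all 4, the 3 deletion animals lay above the 4 controls.

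Thus 4 of the 7 probes were called higher and none lower, where 2.2% of all tested probes were called higher, and the same 4 did not overlap between groups, where 10.8% of all tested probes did not overlap with the deletion above. The median difference of the 7 was 0.84, against 0.11 for all tested probes. The other H4c6 probes differed by 0.02 ± 0.18 and -0.19 ± 0.21, and the other H4c18 probe by 0.33 ± 0.18, none of them past the test (limma, adjusted p = 0.951, 0.568 and 0.24). Probes of H4c6 therefore disagreed in this comparison. Each of the 4 calls held with any 1 of the 7 animals left out. Against the 2 BD1+/- controls alone H4c9 had an adjusted p of 0.0654 (limma), at a difference of 0.82.

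Each of 3 litters held a deletion and a control animal. Within them the H4c17 difference was 1.11, 1.23 and 1.18, and the H4c9 difference 0.81, 0.81 and 0.88. The brightest H4c6 probe differed by 0.87, 1.17 and 0.78 and the brightest H4c18 probe by 0.84, 1.20 and 0.93, so that the deletion animals lay above their litter's controls in 3 of 3 litters for all 4 probes.

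Cell type markers also differed between these groups. Of 9 measured round spermatid genes, 6 were called lower in the deletion, where 5.43% of all tested probes were, and 3 were not called. Acrv1, which encodes an acrosome protein, was on no array of the deletion above detection and was at least 14.1-fold higher in controls (limma, adjusted p = 4.3e-09). The mean log2 signal over the list was 5.64 to 5.93 in deletion animals and 6.94 to 9.40 in controls. Over the 17 spermatogonial genes the mean was 7.35 to 7.57 against 7.06 to 7.50, with 0 of 17 called, and over 11 Sertoli cell genes 10.5 to 10.8 against 9.95 to 10.6, with Sox9 called higher. The part of these in the H4 difference was not tested. In whole testis, fewer cells of a type and less RNA per cell cannot be told apart.

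**Figure D2:**
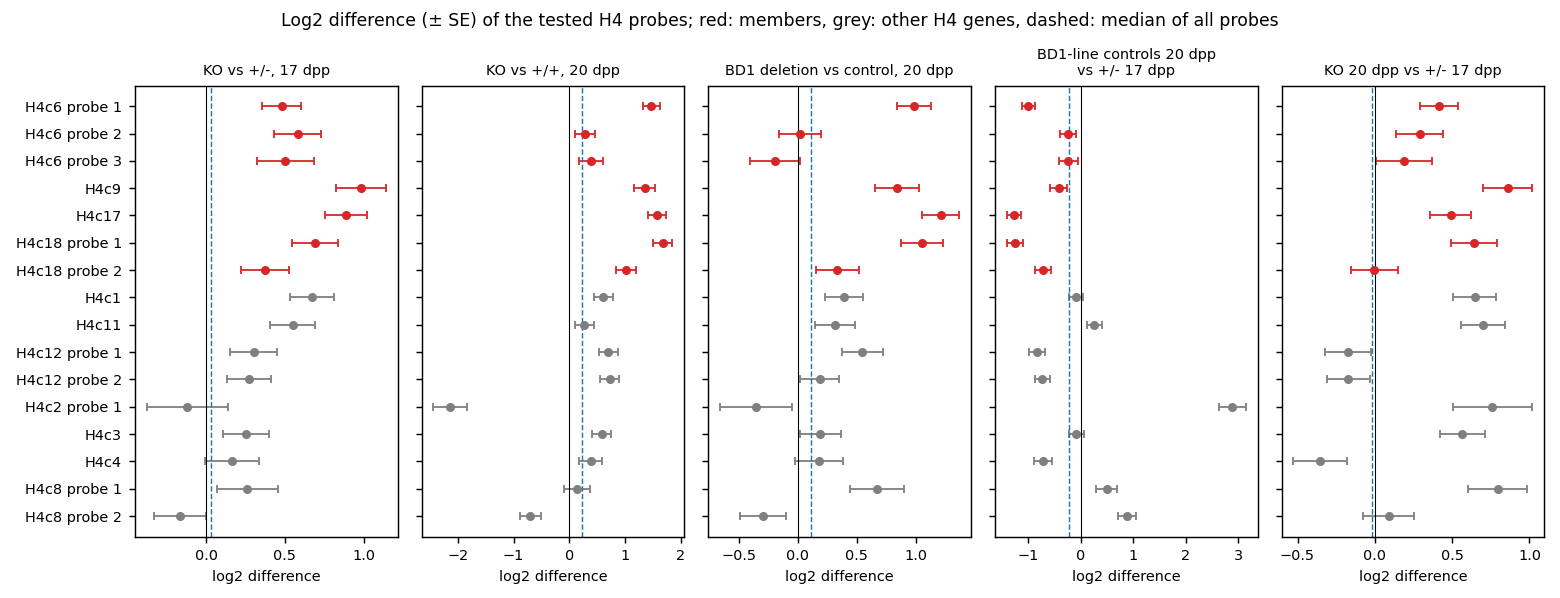
Log2 difference with its SE for the 16 tested H4 probes in 5 comparisons, the 7 member probes in red and other H4 genes in grey; the dashed line is the median of all tested probes. In the BD1 deletion the 4 red points at 0.84 to 1.21 stand apart from the 3 at -0.19 to 0.33, and H4c2 lies on the opposite side from the members when controls are compared by age and when the 20 dpp knockout is set against wild type. Axis ranges differ between panels.

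At 17 dpp, before round spermatids are present in number, Brdt-/- animals were compared with Brdt+/- animals. H4c9 rose by 0.98 ± 0.16 (log2, SE), or 1.97-fold (limma, adjusted p = 0.00487), and the brightest H4c18 probe by 0.69 ± 0.15, or 1.61-fold (limma, adjusted p = 0.0222). H4c17, which was chosen with its value in this comparison known, was 0.89 ± 0.13 higher, 1.85-fold, with no overlap between the groups, and is given without a test. The 3 H4c6 probes differed by 0.48 ± 0.12, 0.58 ± 0.15 and 0.50 ± 0.18 and the other H4c18 probe by 0.37 ± 0.15, and did not pass (limma, adjusted p = 0.0537, 0.058, 0.181 and 0.253). With litter as a block, which the 17 dpp groups share, H4c6 probes ILMN_1222313 and ILMN_1230265 were called at 0.46 and 0.56 (limma, adjusted p = 0.00921 and 0.0135).

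Of the 6 probes that could be tested, 2 were called higher and none lower, where 0.175% of all tested probes were called higher. All 7 differences, with the chosen H4c17 among them, were above 0, with a median of 0.58 against 0.03 over all tested probes. Of the same 6 probes, only H4c6 probe ILMN_1230265 did not overlap between the groups, where 1.52% of all tested probes lay without overlap above Brdt+/-. Both calls were lost when the 2 groups were fitted alone, at the same differences of 0.98 and 0.69 (limma, adjusted p = 0.147 and 0.205). They were also lost with array brightness as a block, at 0.95 and 0.66 (limma, adjusted p = 0.0511 and 0.0645). H4c18 was also lost without animal 72, 73 or 129, at adjusted p between 0.0554 and 0.0701, while H4c9 held without any 1 animal.

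Knockout animal 122 had the lowest signal of the 4 in all 7 probes, and the lightest testis of the 24 animals, 0.009 g. It came from litter 9, where H4c9 differed by -0.0020, the brightest H4c18 probe by 0.12 and H4c17 by 0.27 between knockout and heterozygous animals. In litter 7, H4c9 differed by 1.60, H4c18 by 1.13 and H4c17 by 1.28, and in litter 8 by 1.15, 0.70 and 0.87. The difference was therefore present in 2 of 3 litters for H4c9, and was smallest in litter 9 for all 3 probes.

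Beside these, 2 of 9 spermatocyte genes were called lower at 17 dpp, where 1.04% of all tested probes were. Sycp2, a synaptonemal complex gene, fell by 0.72 ± 0.16 and Tdrd6, a germ granule gene, fell by 2.14 ± 0.48 (limma, adjusted p = 0.0292 and 0.0283). Differences over the 9 genes ran from -2.14 to 0.33 with a median of -0.58, so not all of them fell. The spermatocyte list's mean signal was 9.39 to 10.9 in Brdt-/- and 10.5 to 11.2 in Brdt+/- animals. The spermatogonial mean was 8.00 to 8.25 against 7.74 to 8.12 and the Sertoli mean 11.1 to 11.3 against 10.9 to 11.1, with 0 of 17 and 0 of 11 genes called. Their part in the H4 difference was not tested.

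The knockout at 20 dpp is the comparison that chose the genes, so its values are a description without a test. The brightest H4c18 probe was 1.67 ± 0.17 (log2, SE) above Brdt+/+, or 3.19-fold. H4c17 was 1.57 ± 0.16 above it, or 2.97-fold, and the brightest H4c6 probe 1.47 ± 0.15, or 2.77-fold. H4c9 was 1.35 ± 0.19 above it, or 2.55-fold. The probes that the choice did not rest on were 1.02 ± 0.18 (H4c18), 0.28 ± 0.18 and 0.39 ± 0.21 (H4c6) above it, so that the 2 dimmer H4c6 probes again differed less than the bright one.

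Of the 7, 5 did not overlap between knockout and wild type, where 37.8% of all tested probes lay without overlap above wild type, and the median was 1.35 against 0.22 over all tested probes. Knockout animals 148 and 152 shared litter 1 with the 3 wild types. Within that litter the difference was 1.60 for the brightest H4c18 probe, 1.56 for H4c17, 1.38 for H4c9 and 1.30 for the brightest H4c6 probe, and 0.71, 0.33 and 0.08 for the other 3. Of the round spermatid genes 8 of 9 were called lower, where 19.4% of all tested probes were, with a list mean of 5.47 to 5.86 against 8.30 to 9.65. The spermatogonial mean was 7.56 to 7.96 against 7.08 to 7.26 and the Sertoli mean 10.9 to 11.0 against 10.2 to 10.4. Of these genes, 12 of 17 and 9 of 11 were called higher and 0 lower, where 34.4% of all tested probes were called higher. Their part in the H4 values was not tested.

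In controls, H4 signal also fell with age. The groups compared were Brdt+/- animals at 17 dpp and the BD1 line controls at 20 dpp, which differ in line and genotype as well as in age. The brightest H4c18 probe fell by 1.25 ± 0.15 on the log2 scale and the brightest H4c6 probe fell by 0.998 ± 0.12 (limma, adjusted p = 2.38e-07 and 4.32e-07). H4c17, whose choice used the same Brdt+/- animals, fell by 1.27 ± 0.13 and is given without a test. The other H4c18 probe fell by 0.72 ± 0.15 and H4c9 by 0.42 ± 0.16 (limma, adjusted p = 0.000276 and 0.023). The dimmer H4c6 probes differed by -0.24 ± 0.15 and -0.23 ± 0.18 and did not pass (limma, adjusted p = 0.166 and 0.26).

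Leaving out H4c17, both H4c18 probes, H4c9 and the brightest H4c6 probe were called lower, where 43.4% of all tested probes were called lower. The median of the 7 probes, H4c17 among them, was -0.72 against -0.22 over all tested probes. The called probes and H4c17, which was chosen partly by these Brdt+/- animals, did not overlap between the groups. In this direction 27.7% of all tested probes did not overlap. The H4c9 call was lost without Brdt+/- animal 121 (limma, adjusted p = 0.0562) and without control animal 196 (0.0695). Between the Brdt+/- animals and the Brdt+/+ animals of the same line at 20 dpp, given as a description because the genes were chosen against those wild types, H4c17 differed by -1.08, H4c18 by -1.03 and -1.02, the brightest H4c6 probe by -1.06 and H4c9 by -0.49. The 2 control groups at 20 dpp differed from each other by -0.30 to 0.25 over the 7 probes. Cell type markers also differed between Brdt+/- and the BD1 line controls. Called lower at 20 dpp were 12 of 17 spermatogonial, 11 of 11 Sertoli and 7 of 8 peritubular, vascular and macrophage genes. Called higher were 9 of 9 round spermatid and 3 of 9 spermatocyte genes, where 26.4% of all tested probes were. Of 4 Leydig cell genes 0 were called. The part of these in the H4 fall was not tested.

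The mutants at 20 dpp were also set against the younger Brdt+/- animals. As a description, Brdt-/- at 20 dpp lay above Brdt+/- at 17 dpp by 0.86 ± 0.16 for H4c9, 0.64 ± 0.15 for the brightest H4c18 probe, 0.49 ± 0.13 for H4c17 and 0.41 ± 0.12 for the brightest H4c6 probe. The first 3 of these did not overlap, where 4.76% of all tested probes lay without overlap above Brdt+/-. The other H4c18 probe differed by -0.0031 ± 0.15, and the other H4c6 probes by 0.29 ± 0.15 and 0.19 ± 0.18. This excess was not particular to the members. Their median was 0.41, and that of 7 other H4 genes by their brightest probe was 0.65. H4c8 (0.79), H4c11 (0.70), H4c1 (0.65) and H4c3 (0.57) also lay without overlap above Brdt+/-. H4c2 differed by 0.76 with overlap, H4c12 by -0.18 and H4c4 by -0.35. The BD1 deletion lay -0.06 ± 0.14 from Brdt+/- for H4c17, given without a test because its choice used these Brdt+/- animals. It lay -0.20 ± 0.16 from Brdt+/- for the brightest H4c18 probe and -0.01 ± 0.14 for the brightest H4c6 probe (limma, adjusted p = 0.342 and 0.943). The other H4c18 probe differed by -0.39 ± 0.17 and the other H4c6 probes by -0.22 ± 0.17 (ILMN_1230265) and -0.42 ± 0.20 (ILMN_2525565), and did not pass (limma, adjusted p = 0.0681, 0.302 and 0.0878). In the deletion the H4c18 probe ILMN_2937548 and the H4c6 probe ILMN_2525565 lay without overlap below Brdt+/-, as did 20.4% of all tested probes. The median difference of all tested probes was -0.02 for the knockout and -0.10 for the deletion.

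The BD1 effect was smaller than the knockout effect at 20 dpp in each of the 7 probes, by 0.26 to 0.69 on the log2 scale, with a median of -0.51 against -0.08 over all tested probes. Because the genes were chosen for a high knockout effect, this is a description. By the brightest probe, the mean of the knockout animals at 20 dpp and that of the deletion animals were 7.97 and 7.41 for H4c17. They were 8.56 and 7.73 for H4c18, 8.58 and 8.15 for H4c6, and 8.77 and 8.33 for H4c9. The genes were chosen for a high signal in these knockout animals. These animals also came from different lines, so this order too is only a description.

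The other H4 genes did not share one pattern. Of 7 measured, taken by their brightest probe, 1 was called higher at 17 dpp and 0 in the BD1 deletion. Against Brdt+/+ at 20 dpp, the knockout had 3 called above and 1 below, where 34.4% of all tested probes were called higher and 19.4% lower. H4c1 rose by 0.67 ± 0.14 at 17 dpp (limma, adjusted p = 0.0174). In the BD1 deletion the differences nearest to the threshold were 0.55 ± 0.18 for H4c12 and 0.67 ± 0.23 for H4c8 (limma, adjusted p = 0.0566 and 0.0713). The dimmer probes of these genes differed there by 0.18 ± 0.16 (H4c12) and -0.30 ± 0.20 (H4c8), so the H4c8 probes disagreed. They also disagreed in the knockout at 20 dpp, at 0.14 ± 0.23 for the brighter and -0.70 ± 0.20 for the dimmer. The dimmer H4c8 probe was detected on 18 of 36 arrays. In the knockout at 20 dpp the next H4 genes below the members were H4c12 (0.70 ± 0.18), H4c1 (0.61 ± 0.16) and H4c3 (0.58 ± 0.17). H4c4, whose promoter also holds GGTCCG and TATA, differed by 0.16 ± 0.17 at 17 dpp. It differed by 0.38 ± 0.20 in the knockout at 20 dpp and by 0.18 ± 0.20 in the deletion. None of these was called (limma, adjusted p = 0.722, 0.115 and 0.573), and its probe was detected on 22 of 36 arrays.

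H4c12 and H4c4 fell with age like the members, by 0.83 ± 0.15 and 0.72 ± 0.17 (limma, adjusted p = 4.02e-05 and 0.000804). The H4c4 probe was above detection on 2 of 6 arrays of the BD1 line controls and on 6 of 6 of Brdt+/-, so its lower mean rests mostly on signals not well above background. H4c1, H4c3 and H4c11 differed by -0.08 ± 0.14, -0.08 ± 0.15 and 0.26 ± 0.14 and were not called. H4c8 rose by 0.50 ± 0.19 (limma, adjusted p = 0.0263), and H4c2 went furthest the other way. Its brightest probe (ILMN_1221724) was above detection on none of the 12 arrays at 17 dpp. At 20 dpp this probe was above detection on all 18 arrays of the 2 control groups and the BD1 deletion. The other H4c2 probes, ILMN_1213257 and ILMN_2525620, were detected on 0 of 36 arrays and were not tested, so what follows on H4c2 rests on its brightest probe. H4c2 was at least 3.86-fold higher in the BD1 line controls than in Brdt+/- at 17 dpp, with means of 7.51 ± 0.51 (SD, n = 4) and 4.63 ± 0.18 (n = 6) (limma, adjusted p = 4.34e-09).

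The brightest H4c2 probe also parted the 2 mutants. In Brdt-/- at 20 dpp it was detected on 4 of 6 arrays at a mean of 5.39 ± 0.74 (SD, n = 4), against 7.52 ± 0.39 (n = 3) in Brdt+/+, a difference of -2.13 ± 0.30 (SE; limma, adjusted p = 9.3e-06). In the BD1 deletion it stood at 7.16 ± 0.48 (n = 3), and the difference from controls was -0.35 ± 0.30 (limma, adjusted p = 0.455). The difference between the 2 effects was 1.78 ± 0.43 (limma, adjusted p = 0.0444), where 1.03% of all tested probes passed this test. H4c14 and H4f16 were not detected in enough animals to be tested.

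**Figure D3:**
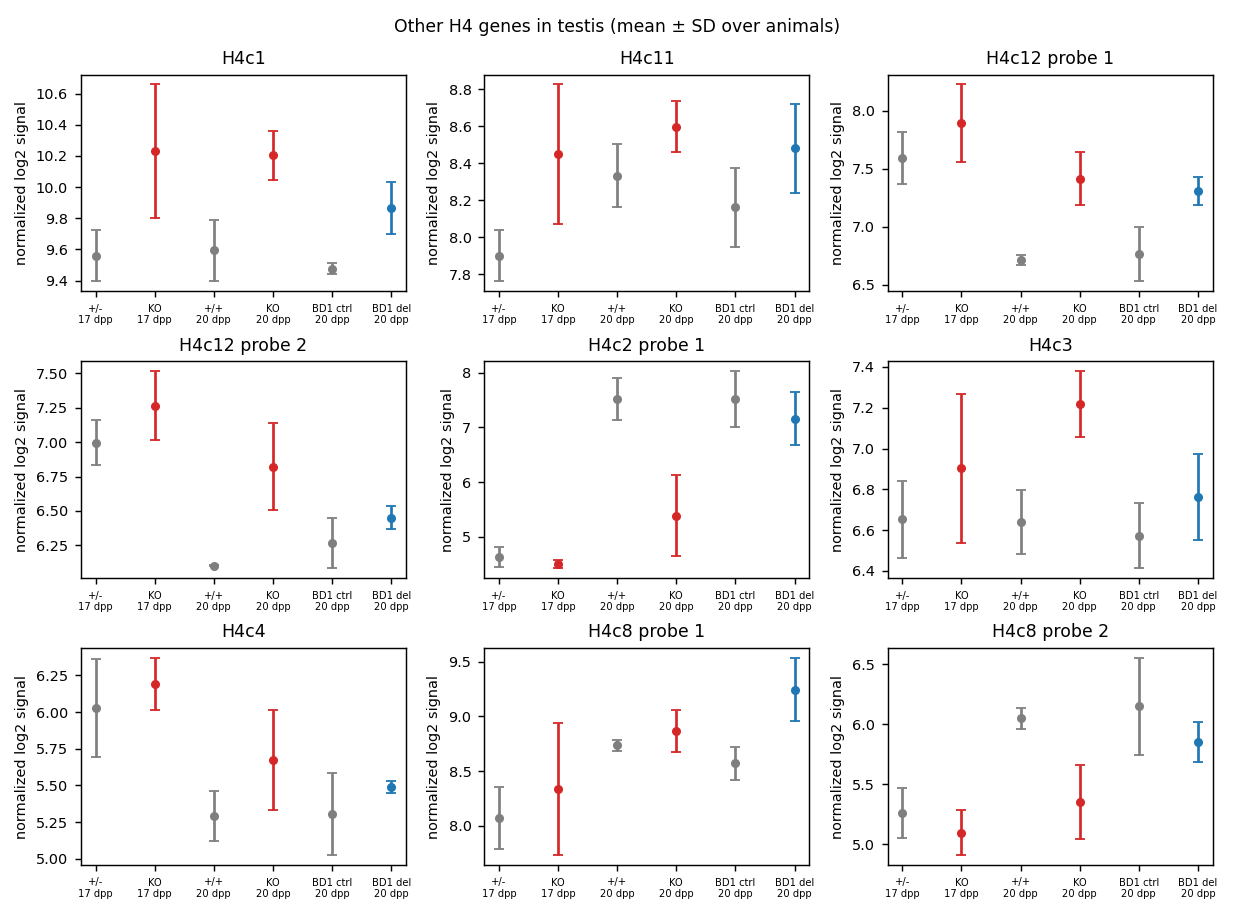
Mean normalized log2 signal with its SD over animals for the 9 tested probes of other H4 genes in the 6 groups (n as in the plot of member signals by animal). H4c2 lies near 4.63 in Brdt+/- animals at 17 dpp and near 7.51 in the BD1 line controls, the opposite of the member genes. Axis ranges differ between panels.

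The other replication histones and the S phase genes were taken as lists. At 17 dpp none of 12 H2A, 9 H2B, 7 H3 or 2 H1 genes was called, nor any of 30 genes of S phase and DNA replication, whose median was -0.02. In the BD1 deletion no H2A, H3 or H1 gene was called. The 12 H2A genes had a median of 0.34, all of them above 0, the 7 H3 genes 0.11 and the 9 H2B genes 0.03, with H2bc12 called lower at -0.86 ± 0.15 (limma, adjusted p = 0.00052). Of the S phase genes 1 of 30 was called, Mcm5, a subunit of the replicative helicase, which rose by 0.48 ± 0.15 (limma, adjusted p = 0.0492), and the list's median was -0.02. The members' median in the deletion was 0.84.

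In the knockout at 20 dpp, 10 of 12 H2A genes and 5 of 7 H3 genes were called higher with medians of 0.66 and 0.36, against 34.4% of all tested probes called higher. Of the S phase genes 14 of 30 were called higher and 4 lower, where 19.4% of all tested probes were called lower, with a median of 0.31. Mcm5, Ung and Mcm4 were 0.72, 0.68 and 0.65 higher, while Rrm2, which encodes a ribonucleotide reductase subunit, fell by 1.005 ± 0.24 (limma, adjusted p = 0.00154). With age in controls 18 of 30 S phase genes fell and 4 rose, and 10 of 12 H2A genes fell, where 43.4% of all tested probes were called lower and 26.4% higher, with list medians of -0.49 and -0.92. By contrast H2bc21 and H2bc12 rose by 1.85 ± 0.26 and 0.93 ± 0.13 (limma, adjusted p = 2.06e-06 for both).

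Of 9 measured genes for histone mRNA transcription and 3′ end processing, 0 were called at 17 dpp and 0 in the BD1 deletion, with medians of -0.01 and -0.02. Hinfp, the factor that recognises the H4 promoter element, differed by 0.12 ± 0.14 and 0.19 ± 0.16 there. In the knockout at 20 dpp 2 were called higher and 1 lower, where 34.4% and 19.4% of all tested probes were. Cstf2, a subunit of the cleavage stimulation factor, was 0.81 ± 0.15 higher and Hinfp 0.45 ± 0.16 higher, while Zfp473, a zinc finger protein of histone mRNA processing, was lower (-0.48 ± 0.16; limma, adjusted p = 0.000165, 0.0238 and 0.017). With age 3 were called higher and 3 lower. Cstf2 fell by 1.02 ± 0.12 and Hinfp fell by 0.70 ± 0.14 (limma, adjusted p = 3.68e-07 and 9.88e-05). Zfp473 rose by 0.70 ± 0.14 and Upf1, an RNA helicase of mRNA decay, by 0.39 ± 0.12 (limma, adjusted p = 0.000108 and 0.00672).

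**Figure D4:**
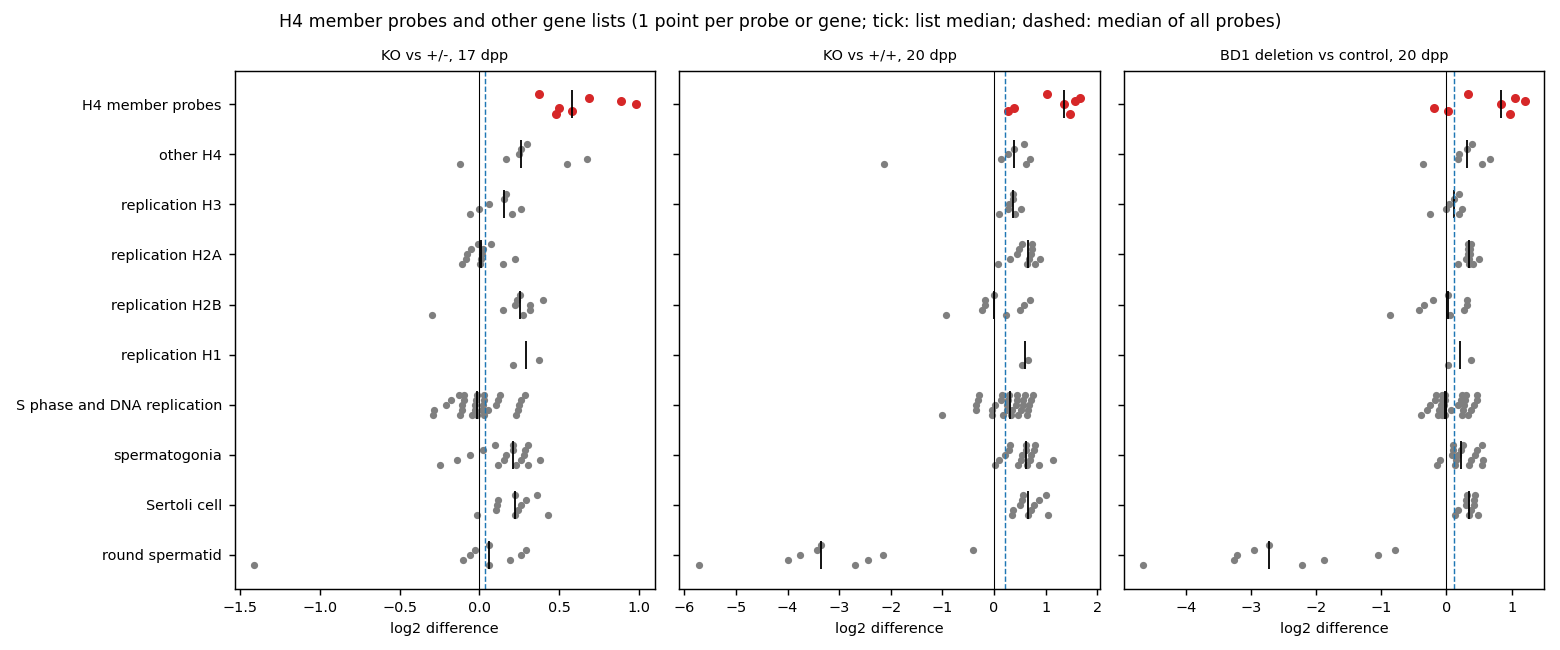
Log2 difference of the 7 member probes (red) and of the genes of 9 lists (grey, 1 point per gene by its brightest probe) in the 3 genotype comparisons, with a tick at each list's median and a dashed line at the median of all tested probes. At 17 dpp the members lie between 0.37 and 0.98 and the H2A genes between -0.11 and 0.23; round spermatid genes are far to the left in both comparisons at 20 dpp. Axis ranges differ between panels.

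Over all arrays, raw medians lay between 118.3 and 152.9 intensity units and 17379 to 20016 probes were detected, and no 2 arrays held identical values. Spermatocyte and Sertoli cell genes, which define the tissue, were bright in every group, with list means of at least 9.39 and 9.95. The brightest Brdt probe was lower in Brdt-/- than in its controls at both ages (6.10 ± 0.64 against 9.00 ± 0.37 at 17 dpp, 7.82 ± 0.52 against 11.5 ± 0.089 at 20 dpp) and in the BD1 deletion (10.3 ± 0.16 against 11.4 ± 0.43; SD, n as above).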

How the data were processed

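Arrays whose labels give the same mouse, litter and testis weight were averaged as 1 animal. The authors deposited linear probe signals (intensity), not yet normalized, from GenomeStudio 2011.1 according to the submitters' processing notes, and beside each signal a detection p-value. A second deposited matrix of processed intensity was an alternative only. The sources used here do not say if background had been removed. From the signals, neqc of limma 3.58.1 (R 4.3.3; control values inferred from detection p-values; offset 16) gave quantile-normalized log2 values. Arrays of an animal were averaged, and probes with a detection p under 0.01 on all arrays of at least 3 animals were kept (21190). lmFit and eBayes with a trend were fitted over 6 groups, and probes with a Benjamini-Hochberg adjusted p under 0.05 over all kept probes were called. The number of arrays limits precision. Differences are on the log2 scale of signal after the offset, which understates changes of dim probes. An "at least" fold sets the brighter group against the lowest detected signal on each array of a group without detection.

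Symbols came from the platform annotation, updated by Entrez identifier (34807 probes); promoters came from RefSeq, and promoter pairs were aligned globally. Members and gene lists were chosen with earlier results of these data known. Named genes were all member probes, other H4 genes by their brightest probe, up to 4 called genes per list and comparison, taken by adjusted p, and the 5 genes nearest in pattern; Hinfp where not called and Ipo4 with age were chosen after their values were seen. The fit was tested on simulated data. Alternatives were background correction, scaling, the authors' matrix, the detection filter, litter, replicate number and array brightness as blocks, fits of 2 groups, the kind of BD1 control and each animal left out.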

Additional observations from a re-analysis of the deposited data

Results flagged for a closer look

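For H4c6 probe ILMN_1222313, Brdt+/- animal 127 at 17 dpp stood apart at 8.45, above the other 5 of its group. Knockout animal 122 at 17 dpp stood apart at 7.13 for H4c6 probe ILMN_1230265 and at 7.96 for H4c18 probe ILMN_2597653, below the other 3 of its group in both. Of 28 groups of 4 to 6 animals examined over the 7 probes, 3 held an animal this far from the rest, and chance gives about 1 in 20. For the brightest H4c2 probe, the BD1 effect less the knockout effect at 20 dpp was 1.78 (limma, adjusted p = 0.0444), with 4 of 6 knockout arrays above detection.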

How the results depend on the processing

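Without background correction and in the authors' matrix, the members' median difference was 0.909 in both for the knockout at 20 dpp, 0.584 in both for the BD1 deletion, -0.379 in both for age in controls and -0.343 in both for the BD1 less the knockout effect, and 165 probes were called at 17 dpp in both. Median scaling gave 0.883 for the deletion and -0.637 for age, and H4c9 lost its age call. Relative to the median of all probes the members' medians were 1.13, 0.731 and -0.501 for the knockout at 20 dpp, the deletion and age. The main fit did not pair samples by replicate number. Deviations from group means of same-numbered arrays correlated at -0.12 to 0.62 at 17 dpp, with 4 of 6 pairs above 0.1. For the knockout at 20 dpp they correlated at -0.18 to 0.45 (4 of 6 above 0.1), and for the deletion at -0.07 to 0.43 (5 of 6). What same-numbered arrays share was not tested. At 17 dpp, 4 of 6 member probes were called with a litter block or a replicate block, over 2083 and 885 called probes in all, and 0 in a fit of 2 groups alone (2 probes in all) or with array brightness as a block. For the deletion, 3791, 4666, 483 and 2721 probes were called with the litter block, the replicate block, 2 groups alone and brightness, 488 against BD1+/- controls and 3715 against BD1+/+ controls, and 3 or 4 member probes in each. The litter block gave -0.386 for the BD1 less the knockout effect. With an animal left out, member calls at 17 dpp ranged from 1 to 4, all calls at 17 dpp from 67 to 811 and for the deletion from 798 to 4959, the deletion's median from 0.794 to 0.873 and the age median from -0.787 to -0.633. Without animals 122 and 127, 36 probes were called at 17 dpp, and within litter 1 alone 6561 in the knockout at 20 dpp; both were chosen after seeing the data. H4c6 probe ILMN_1230265, at 0.02 in the deletion, was -0.031 with the replicate block, -0.014 with brightness, -0.235 against BD1+/+ controls and -0.068 to 0.119 with an animal left out, and H4c6 probe ILMN_2525565 was 0.061 against BD1+/- controls; none was called, and the cause was not tested. A litter block could not be fitted for the age comparisons. The replicate block changed no other call of a member probe than 2 of H4c6 at 17 dpp (0.44 and 0.56).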

Other observations

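Genes that handle H3 and H4 before they enter chromatin did not move as one group. Of 13 measured chaperone and assembly genes, 0 were called at 17 dpp and 1 in the BD1 deletion. Nasp, a histone chaperone abundant in testis, fell there by 0.86 ± 0.15 (limma, adjusted p = 0.000303). In the knockout at 20 dpp Nasp, Ipo4, an importin that carries H3 and H4, and Chaf1a, a subunit of chromatin assembly factor, were lower (-0.88 ± 0.15, -0.71 ± 0.15 and -1.08 ± 0.23), and Hat1, which acetylates new H4, was higher (0.65 ± 0.11; limma, adjusted p = 5.65e-05, 0.000656, 0.000722 and 4.42e-05). With age in controls these 4 genes went the other way, Chaf1a by 1.59 ± 0.20, Nasp by 1.06 ± 0.12, Ipo4 by 0.67 ± 0.13 and Hat1 by -0.56 ± 0.09 (limma, adjusted p = 4.13e-07, 2.02e-07, 8.31e-05 and 1.16e-05).

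Among 10 measured replacement and testis histone variants, 0 were called at 17 dpp and 0 in the BD1 deletion. In the knockout at 20 dpp 5 were called higher and 2 lower, where 34.4% of all tested probes were called higher and 19.4% lower. The lower ones were Macroh2a2 (-1.76 ± 0.28) and H1f7, a linker histone of spermatids, which was on no knockout array above detection, on 3 of 6 wild-type arrays, and at least 1.25-fold higher in wild type (limma, adjusted p = 4.11e-05 and 0.00888).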
